A study of Mus musculus with 12 samples.

Results

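The adipocyte genes of the subcutis, the fat layer beneath the dermis, were followed in bulk RNA-seq of periocular skin. They are *Adipoq*, *Lep*, *Retn*, *Plin1*, *Plin4*, *Cidec*, *Fabp4*, *Lpl*, *Pnpla2* and *Lipe*, taken by symbol from a count table of 21247 genes, and all 10 of 10 were found and tested. The biopsies were labelled as eye skin of 6-week-old female BALB/c mice of 2 genotypes, ft/ft and ft/ftMyD88-/-, with 4 libraries each. Both genotypes carry the ft/ft mutation, a spontaneous loss-of-function point mutation of filaggrin (*Flg*), which encodes a structural protein of the outer epidermis. The ft/ftMyD88-/- mice came from a cross of ft/ft with mice deficient in MyD88, the adaptor of toll-like receptors and the IL-1 receptor family, and lack it in every tissue rather than in one cell type. The 4 WT samples of the series were not analysed here. The question asked of these genes was whether their transcript levels differed between ft/ftMyD88-/- and ft/ft skin.

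White adipocytes store triglyceride in a single large lipid droplet, and dermal and subcutaneous adipocytes lie next to the hair follicles and the muscle layer of skin. Lipoprotein lipase at the capillary wall frees fatty acids from lipoproteins, fatty acid binding proteins carry them inside the cell, perilipins and CIDE proteins coat and fuse the droplet, and adipose triglyceride lipase and hormone-sensitive lipase release the fatty acids again. Adipocytes also secrete hormones, among them adiponectin, leptin and resistin. PPARγ and C/EBP transcription factors are the textbook activators of this gene set. The periocular region also holds eyelid muscle, sebaceous and meibomian glands, and parts of this machinery are used there as well.

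The promoters are shown for the 3 genes whose promoter holds the C/EBP-type sequence TTNNGCAA. Whether this sequence has a part in the variation that the members share from library to library was not tested. Of the 10 genes 8 had a promoter in the RefSeq table (GRCm38.p6, 250 bases before to 50 after the start), and *Fabp4* and *Lpl* had none. Capitals mark TTNNGCAA read on either strand, and each sequence runs 5′ to 3′ on the strand of its gene. The *Lep* promoter spans chr6:29059971-29060270 (plus strand), that of *Plin1* chr7:79732727-79733026 (minus strand), and the second listed promoter of *Cidec* chr6:113434715-113435014 (minus strand).
Lep: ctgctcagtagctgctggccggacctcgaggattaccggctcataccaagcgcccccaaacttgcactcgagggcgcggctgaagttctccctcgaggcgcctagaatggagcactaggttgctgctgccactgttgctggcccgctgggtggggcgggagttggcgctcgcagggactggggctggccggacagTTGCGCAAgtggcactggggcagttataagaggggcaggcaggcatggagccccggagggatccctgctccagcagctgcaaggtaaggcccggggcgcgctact
Plin1: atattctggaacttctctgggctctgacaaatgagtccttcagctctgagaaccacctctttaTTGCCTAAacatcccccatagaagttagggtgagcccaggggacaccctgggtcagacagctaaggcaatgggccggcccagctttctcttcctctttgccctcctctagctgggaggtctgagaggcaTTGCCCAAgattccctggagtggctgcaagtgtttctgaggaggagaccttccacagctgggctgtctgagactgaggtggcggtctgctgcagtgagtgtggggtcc
Cidec: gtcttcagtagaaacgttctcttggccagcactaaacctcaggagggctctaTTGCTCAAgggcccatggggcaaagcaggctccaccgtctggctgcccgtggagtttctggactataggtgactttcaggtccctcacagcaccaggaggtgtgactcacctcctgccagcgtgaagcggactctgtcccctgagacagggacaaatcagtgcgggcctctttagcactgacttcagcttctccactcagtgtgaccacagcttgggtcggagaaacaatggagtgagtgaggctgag
Counted from the start that belongs to each listed promoter, the match began at position -55 in *Lep*, where it reads the same on both strands. It began at -187 and -58 in *Plin1* and at -198 in *Cidec*. For *Plin1* and this *Cidec* promoter, that start lies inside the gene span given below. A negative position there need not lie upstream of the gene. TTNNGCAA was found in 3 of the 8 genes with a promoter and in 10.8% of 32851 promoters of the same length. The units differ: a gene counted if any of its listed promoters matched, and *Cidec* and *Lipe* list 2, whereas the percentages are per promoter. The nuclear receptor half-site AGGTCA was in 0 of the 8 and in 16.3% of all promoters, 2 copies of AGGTCA with a 1-base gap were in 0 of the 8 and in 0.0396%, and the TATA-box letters TATAAA were in 0 of the 8 and in 13.6%. These are matches of letters on both strands only.

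The ft/ft libraries held 18941705 to 29255129 counts and the ft/ftMyD88-/- libraries 15802957 to 27037997, and every member had at least 100 counts in every library, the fewest being 111 for *Lep*. Values are CPM, counts scaled to a common library size with TMM factors, and differences are log2 fold changes of ft/ftMyD88-/- over ft/ft. *Myd88* itself did not go down with the label, at 41.2 CPM in ft/ftMyD88-/- against 30.7 in ft/ft (edgeR adjusted p = 0.0484), so directions rest on the labels; a count per gene cannot show a deleted exon. The ft/ft line had been freed of the matted mutation, which lies in *Tmem79*. The level of *Tmem79* was 59.2 ± 2.92 CPM in the ft/ft group and 16.4 ± 2.10 CPM with MyD88 deficiency (SD, n = 4, log2 fold change -1.85, edgeR adjusted p = 5.08e-07). Whether the groups differ in the sequence of that gene was not tested. Although the labels give females, the female transcript *Xist* stood at 0.0107 CPM in the ft/ft libraries and 49.4 in ft/ftMyD88-/-, and the Y-linked *Ddx3y* at 65.0 and 0.147 CPM, in all 4 libraries of each group. Genotype and sex therefore cannot be told apart in any difference below, and in bulk tissue fewer adipocytes and less RNA per adipocyte cannot be told apart either. The defining adipocyte markers were present in all 8 libraries, from 51.6 CPM for *Adipoq* upwards and from 54.7 for *Plin1*.

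None of the 10 genes passed the test between the groups. edgeR's quasi-likelihood test called 0 of 10 at a Benjamini-Hochberg adjusted p under 0.05, against 23.3% of the 20454 genes tested, 12.3% called lower and 10.9% called higher. At an unadjusted p under 0.05 it was 1 gene, *Pnpla2*, which both DESeq2 and limma voom called. The libraries of the groups overlapped in 10 of 10 members, whereas in 26.7% of all genes tested they did not. The log2 fold change was negative in 8 of 10, with a median of -0.19 against 0.013 over all genes tested. That median rested on single libraries, and was 0.055 without ft/ft replicate 4 and -0.53 without ft/ftMyD88-/- replicate 3. Scaling by library size only shifted all genes upwards by 0.18 on the log2 scale and the members' median to -0.01, which left 5 of 10 negative.

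**Figure D1:**
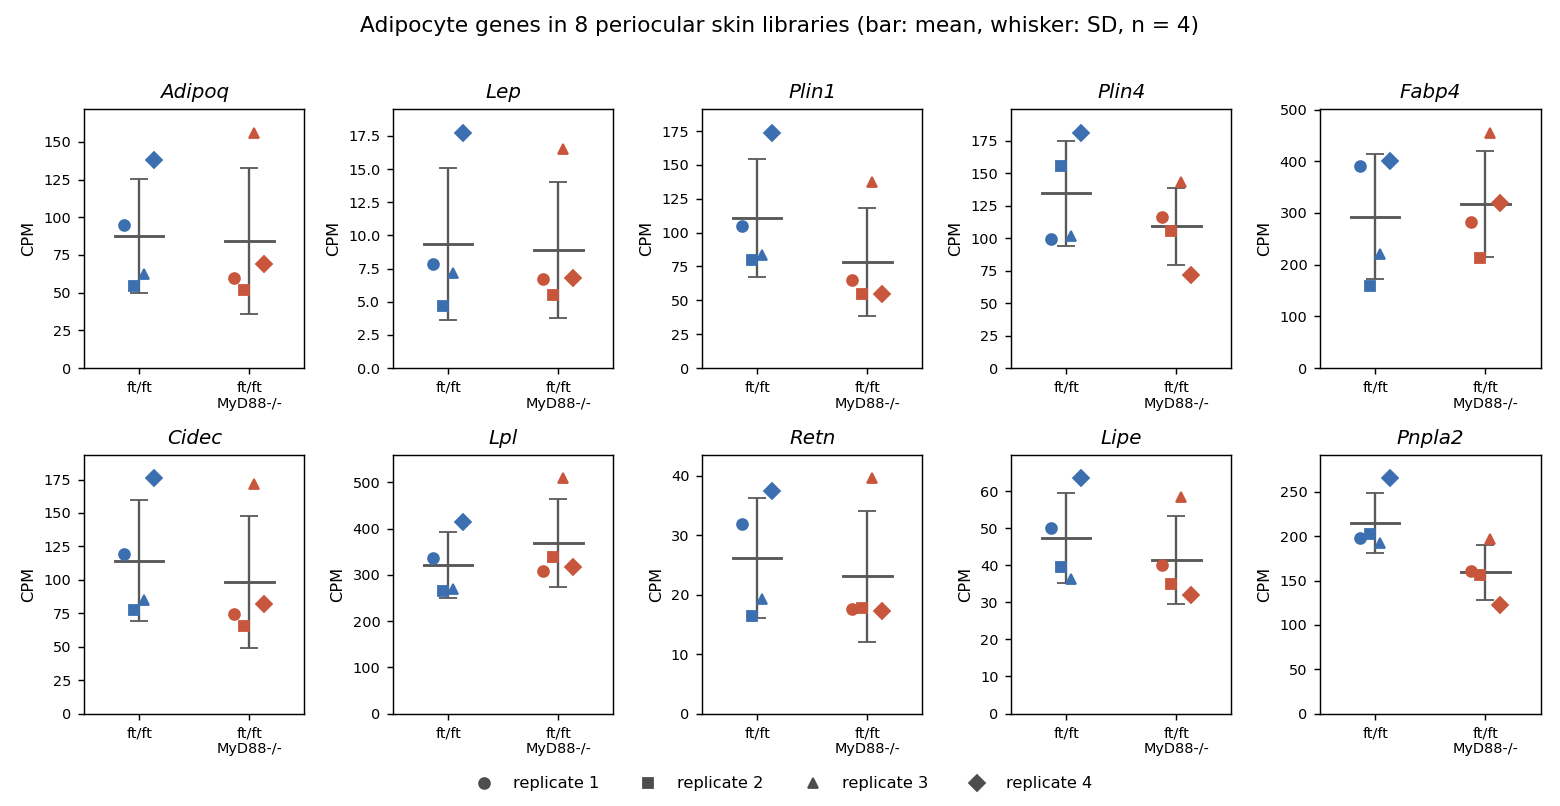
CPM of each adipocyte gene (y axis, linear from 0) in the 4 ft/ft (blue) and 4 ft/ftMyD88-/- libraries (red), with a marker shape for each replicate, a bar at the mean and whiskers of 1 SD. In all 10 panels ft/ft replicate 4 and ft/ftMyD88-/- replicate 3 are the highest of their group, and the groups overlap.

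The adipocyte hormones differed little in mean level and widely among libraries. *Adipoq* (chr16:23146536-23157968, plus strand) encodes adiponectin, which acts on liver and muscle. It was at 94.9, 54.7, 62.6 and 138 CPM in ft/ft replicates 1 to 4 and at 59.7, 51.6, 156 and 69.3 in ft/ftMyD88-/-. Replicate 4 was the highest in ft/ft and replicate 3 stood far above the rest in ft/ftMyD88-/-, and the groups spanned nearly the same range. The means were 87.6 ± 38.0 and 84.2 ± 48.5 CPM (SD, n = 4), a log2 fold change of -0.06 (standard error 0.469, 95% interval -1.18 to 1.07, edgeR adjusted p = 0.945). *Lep* (chr6:29060221-29073876, plus strand) encodes leptin, the satiety hormone. It was the least abundant of the 10, at 7.84, 4.69, 7.20 and 17.8 CPM across ft/ft and 6.70, 5.51, 16.5 and 6.77 in ft/ftMyD88-/-. Again 1 library in each group was more than double any other, and the remaining 6 lay between 4.69 and 7.84. On the log2 scale the difference was -0.07 (standard error 0.522, 95% interval -1.31 to 1.16, edgeR adjusted p = 0.936). *Retn* (chr8:3655770-3659818, plus strand) encodes resistin, an adipocyte hormone of mice. It stood at 31.8, 16.3, 19.2 and 37.5 CPM in the ft/ft libraries and 17.7, 17.8, 39.6 and 17.2 in ft/ftMyD88-/-, where 3 libraries were nearly equal and replicate 3 stood alone. The difference was -0.18 on the log2 scale (standard error 0.39, edgeR adjusted p = 0.778).

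The droplet coat genes had lower means in ft/ftMyD88-/- without passing the test. *Plin1* (chr7:79721164-79732904, minus strand) encodes perilipin 1, which shields the adipocyte droplet from lipases. It was at 105, 80.0, 83.7 and 174 CPM across ft/ft and 65.3, 54.7, 138 and 55.0 in ft/ftMyD88-/-. All ft/ftMyD88-/- libraries but replicate 3 lay below every ft/ft library, and replicate 3 lay above 3 of the 4. The means were 111 ± 43.6 and 78.2 ± 40.0 CPM (SD, n = 4), a log2 fold change of -0.50 (standard error 0.407, 95% interval -1.47 to 0.47, edgeR adjusted p = 0.429). This was the most negative fold change of the 10, and it was -0.91 without ft/ftMyD88-/- replicate 3 (edgeR adjusted p = 0.0519) and -0.19 without ft/ft replicate 4 (edgeR adjusted p = 0.765). *Cidec* (chr6:113424634-113435760, minus strand) encodes a protein that fuses droplets. It was at 119, 77.2, 85.1 and 176 CPM in the ft/ft libraries and 74.5, 65.4, 171 and 82.3 in ft/ftMyD88-/-, and followed the library order of *Adipoq* in both groups. The difference of -0.22 on the log2 scale (standard error 0.407, edgeR adjusted p = 0.748) turned to 0.07 without ft/ft replicate 4. *Plin4* (chr17:56100587-56109948, minus strand) encodes perilipin 4, a coat protein of small new droplets. It departed from the common order, at 99.4, 156, 102 and 181 CPM across ft/ft and 116, 105, 143 and 71.7 in ft/ftMyD88-/-. In ft/ft replicate 2, where the hormones were lowest, it was second highest. Between the groups it differed by -0.30 on the log2 scale (standard error 0.26, edgeR adjusted p = 0.446). Of its exon bases 17 overlap *Hdgfl2* on the opposite strand.

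The genes of fatty acid capture were the 2 members with a positive fold change. *Fabp4* (chr3:10204342-10208616, minus strand) encodes the adipocyte fatty acid binding protein, also made by capillary endothelium. It was at 391, 159, 220 and 400 CPM in the ft/ft libraries and 283, 212, 455 and 320 in ft/ftMyD88-/-, so ft/ft split into a high and a low pair. The groups differed by 0.12 on the log2 scale (standard error 0.362, edgeR adjusted p = 0.85), a value that was negative without ft/ft replicate 2 (-0.087) or ft/ftMyD88-/- replicate 3 (-0.095). *Lpl* (chr8:68880555-68906932, plus strand) encodes lipoprotein lipase, made by adipocytes and by muscle. It was at 337, 264, 270 and 415 CPM across ft/ft and 309, 339, 509 and 317 in ft/ftMyD88-/-. The lowest ft/ftMyD88-/- library lay above 2 of the ft/ft libraries. The means were 321 ± 70.5 and 368 ± 94.7 CPM (SD, n = 4), a log2 fold change of 0.20 (standard error 0.19, 95% interval -0.22 to 0.62, edgeR adjusted p = 0.495).

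Of the lipases, *Pnpla2* came nearest to the threshold. *Pnpla2* (chr7:141455188-141460743, plus strand) encodes adipose triglyceride lipase, which takes the first fatty acid off stored triglyceride and works in many tissues. It was at 198, 203, 192 and 265 CPM in the ft/ft libraries and 161, 156, 197 and 123 in ft/ftMyD88-/-. Only ft/ftMyD88-/- replicate 3, above the lowest ft/ft library by a few CPM, made the groups overlap. The means were 215 ± 34.1 and 159 ± 30.7 CPM (SD, n = 4), a log2 fold change of -0.43 (standard error 0.145, 95% interval -0.75 to -0.11, edgeR adjusted p = 0.0504). The two-sided exact permutation test over the 8 libraries gave p = 0.0571, unadjusted, where the smallest p this design allows is 0.0286. The call depended on the setting, since *Pnpla2* passed with DESeq2 (adjusted p = 0.0326), with limma voom (adjusted p = 0.0467) and in edgeR without ft/ftMyD88-/- replicate 3 (adjusted p = 0.0188). Over all 17 alternatives its log2 fold change lay between -0.54 and -0.25 and the adjusted p between 0.0188 and 0.254. *Lipe* (chr7:25379527-25398486, minus strand) encodes hormone-sensitive lipase, which acts next in the chain. It was at 50.0, 39.6, 36.4 and 63.5 CPM across ft/ft and 40.1, 34.9, 58.3 and 31.8 in ft/ftMyD88-/-, with broad overlap. The groups differed by -0.20 on the log2 scale (standard error 0.226, edgeR adjusted p = 0.579). An antisense gene, 4732471J01Rik, covers 918 exon bases of *Lipe*, and since no strand setting is given, its reads could not be told from those of *Lipe*. For the 9 members other than *Pnpla2* the unadjusted two-sided exact permutation p lay between 0.257 and 0.914.

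**Figure D2:**
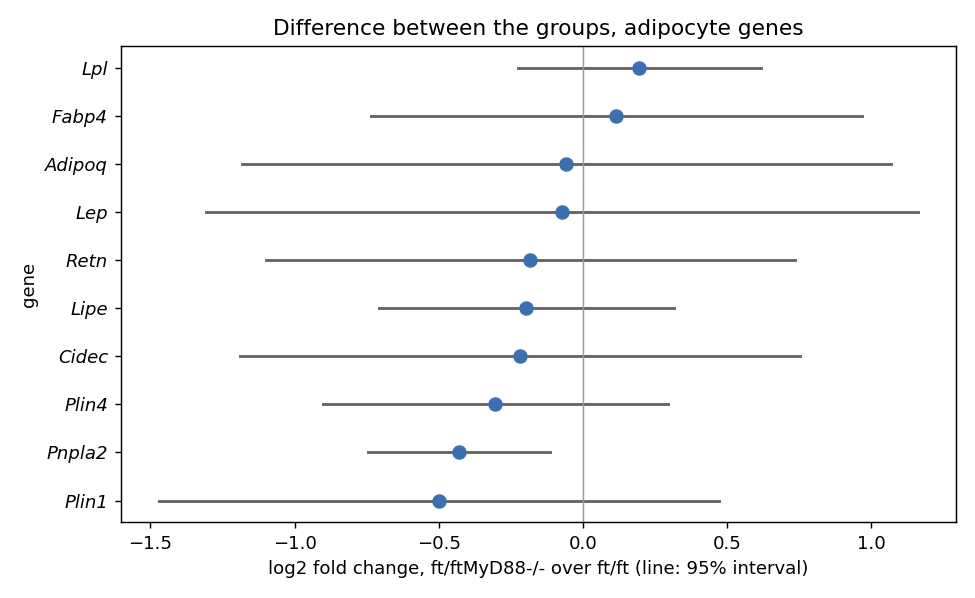
log2 fold change of ft/ftMyD88-/- over ft/ft (x axis) for the 10 adipocyte genes, ordered from highest to lowest (y axis), with points at edgeR's estimate and lines for the 95% interval. The intervals of 9 genes include 0, that of *Pnpla2* runs from -0.75 to -0.11, and those of *Adipoq* and *Lep* are over 2 log2 units wide.

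The intervals were wide for the hormones. That of *Adipoq* ran from 0.44 to 2.10 as a linear fold and that of *Lep* from 0.405 to 2.24, so a change of 2-fold in either direction lies within both. *Pnpla2* and *Lpl*, with the narrowest intervals, ran from 0.596 to 0.924 and from 0.856 to 1.53.

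Per transcript length, the level of *Fabp4* stood apart from the others in both groups. It was at 327 ± 136 CPM per kb in ft/ft and 354 ± 114 in ft/ftMyD88-/- (SD, n = 4). In ft/ft there followed *Pnpla2* at 81.8 ± 13.0, *Lpl* at 78.1 ± 17.1, *Adipoq* at 67.8 ± 29.4, *Cidec* at 66.5 ± 26.1 and *Plin1* at 57.7 ± 22.7 CPM per kb, and neighbours among these 5 lay within each other's SD. *Plin4* at 23.4 ± 7.04 and *Retn* at 23.0 ± 8.86 CPM per kb formed a lower step, *Lipe* was at 13.1 ± 3.38, and *Lep* was lowest at 2.88 ± 1.76. In ft/ftMyD88-/- the top and the bottom of the order were kept, with *Lep* at 2.72 ± 1.58 CPM per kb, while *Pnpla2*, at 60.7 ± 11.7, came after *Lpl* at 89.5 ± 23.0 and *Adipoq* at 65.2 ± 37.6.

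The members varied far more within a group than most genes did, and largely together. The SD of log2 CPM within groups had a median of 0.57 over the 10 members and ranged from 0.25 to 0.75, against a median of 0.16 over the 11936 genes with a mean of at least 5 CPM. The highest library of a group exceeded the lowest by 1.38-fold (*Pnpla2*) to 3.78-fold (*Lep*) in ft/ft and by 1.61-fold to 3.03-fold in ft/ftMyD88-/-. All 10 members were highest in ft/ft replicate 4 and in ft/ftMyD88-/- replicate 3. The lowest ft/ft library was replicate 2 for 7 members and replicate 3 for 2 others. The summed CPM of the 10 genes was 1434, 1055, 1078 and 1869 in ft/ft and 1132, 1042, 1885 and 1093 in ft/ftMyD88-/-, so the groups spanned the same range.

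**Figure D3:**
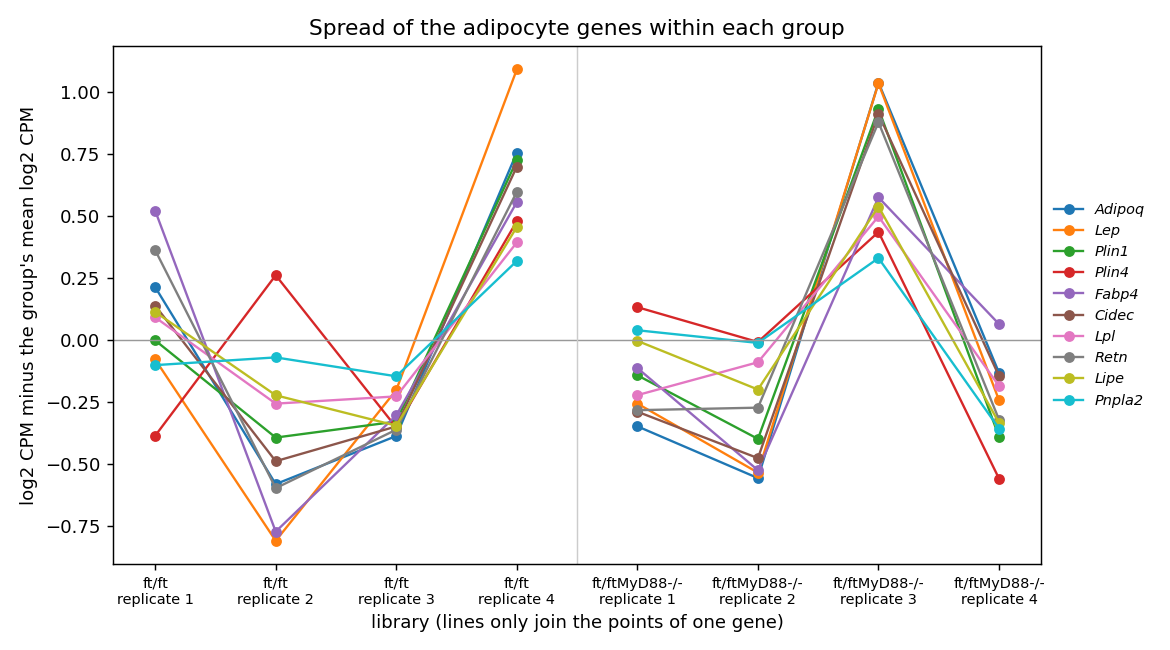
Deviation of each adipocyte gene's log2 CPM from its group's mean (y axis) in the 8 libraries (x axis), with a colour for each gene; lines join points of one gene only. All 10 genes lie above 0 in ft/ft replicate 4 and in ft/ftMyD88-/- replicate 3, and *Plin4* departs from the others in ft/ft replicates 1 and 2.

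After subtraction of the group means, Pearson's r between a member and the mean of the other 9 over the 8 libraries was 0.99 for *Plin1*, 0.98 for *Cidec*, 0.97 for *Adipoq* and *Lpl*, 0.96 for *Lipe* and *Retn* and 0.95 for *Lep*. It was 0.82 for *Fabp4*, 0.81 for *Pnpla2* and 0.52 for *Plin4*. These values share libraries and scaling and are descriptions. Without ft/ft replicate 4 and ft/ftMyD88-/- replicate 3, the r over the other 6 libraries stayed between 0.67 (*Lep*) and 0.94 (*Plin1*) for 8 members, whereas it was 0.01 for *Pnpla2* and -0.52 for *Plin4*. The likeness of these 2 lipid genes to the rest therefore rested on those 2 libraries. Among 11926 other genes with a mean of at least 5 CPM, the 8 with the pattern most like the members' mean were *Car3* (r = 0.989), a gene known only by a clone name (0.985), *Fmo1* (0.981), *Mrap* (0.981), *Tusc5* (0.98), *Abcd2* (0.972), *Ythdc2* (0.971) and *Aifm2* (0.97). *Car3* encodes a carbonic anhydrase abundant in fat and muscle, *Mrap* a partner of the adrenocorticotropin receptor, *Tusc5* a protein of glucose transporter traffic and *Abcd2* a peroxisomal fatty acid transporter. *Fmo1* alone of the 8 was called between the groups, at 18.5 ± 3.63 CPM in the ft/ft libraries and 12.7 ± 2.35 in ft/ftMyD88-/- (SD, n = 4, log2 fold change -0.54, edgeR adjusted p = 0.029). *Car3*, at 690 ± 268 and 461 ± 270 CPM, was not (edgeR adjusted p = 0.399).

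Dividing each member by *Plin1* in the same library removes the scaling between libraries, but not shared swings of unequal size. The ratios of *Lpl*, *Lipe* and *Pnpla2* were lowest of their group in ft/ft replicate 4 and ft/ftMyD88-/- replicate 3, where all members were highest. Those of the other genes were lowest in another ft/ft library. The mean log2 ratio was higher in ft/ftMyD88-/- for 9 of 9 genes, by 0.73 for *Lpl*, 0.71 for *Fabp4*, 0.50 for *Lep*, 0.44 for *Adipoq*, 0.34 for *Retn* and *Lipe*, 0.29 for *Cidec*, 0.25 for *Plin4* and 0.10 for *Pnpla2*. The common direction comes with the shared denominator, the member with the most negative fold change. The *Lpl* ratio was 1.68, 1.72, 1.69 and 1.26 in ft/ft and 2.24, 2.63, 1.89 and 2.53 in ft/ftMyD88-/-, without overlap. Ratios did not overlap for 3 of the 9, but for *Adipoq* the highest ft/ft value was -0.15 and the lowest ft/ftMyD88-/- value -0.13, and for *Cidec* these were 0.18 and 0.19. The share of all genes whose ratio to *Plin1* would not overlap was not computed, so the 3 of 9 has no background. For plain CPM, 26.7% of all genes tested did not overlap. No test was run on the ratios, since the genes were chosen together.

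**Figure D4:**
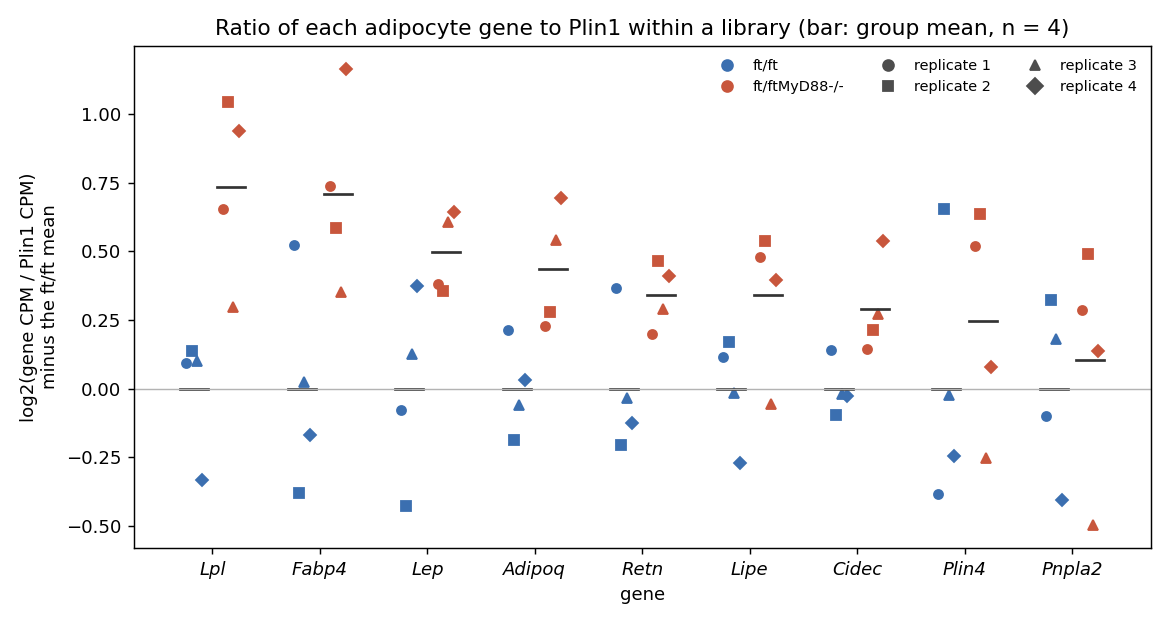
log2 ratio of each adipocyte gene to *Plin1* within a library, minus the ft/ft mean (y axis), for 9 genes (x axis) in ft/ft (blue) and ft/ftMyD88-/- (red), with marker shapes for replicates and bars for group means. The *Lpl* ratios of the groups are apart, and those of *Pnpla2* and *Plin4* are mixed.

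The wider adipocyte pathway was read from 8 lists with 77 genes, of which 74 were tested. Of the 74, 31 passed the test, 23 lower and 8 higher in ft/ftMyD88-/-, beside 23.3% of all genes tested. That share includes many genes with few counts. With a stricter filter on low counts (filterByExpr), 30 pathway genes passed, beside 29.6% of 16280 genes. How many of the 74 met that filter is not given here, so the 30 cannot be read as a share. The direction of the 31 was the same under every alternative. With scaling by library size only, 25 passed, 11 lower and 14 higher, and 19 of the 31 were among them; over all genes the split was then 1326 lower and 4638 higher, against 2525 and 2239. With 1 library left out, 18 of the 31 passed in all 8 fits.

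**Figure D5:**
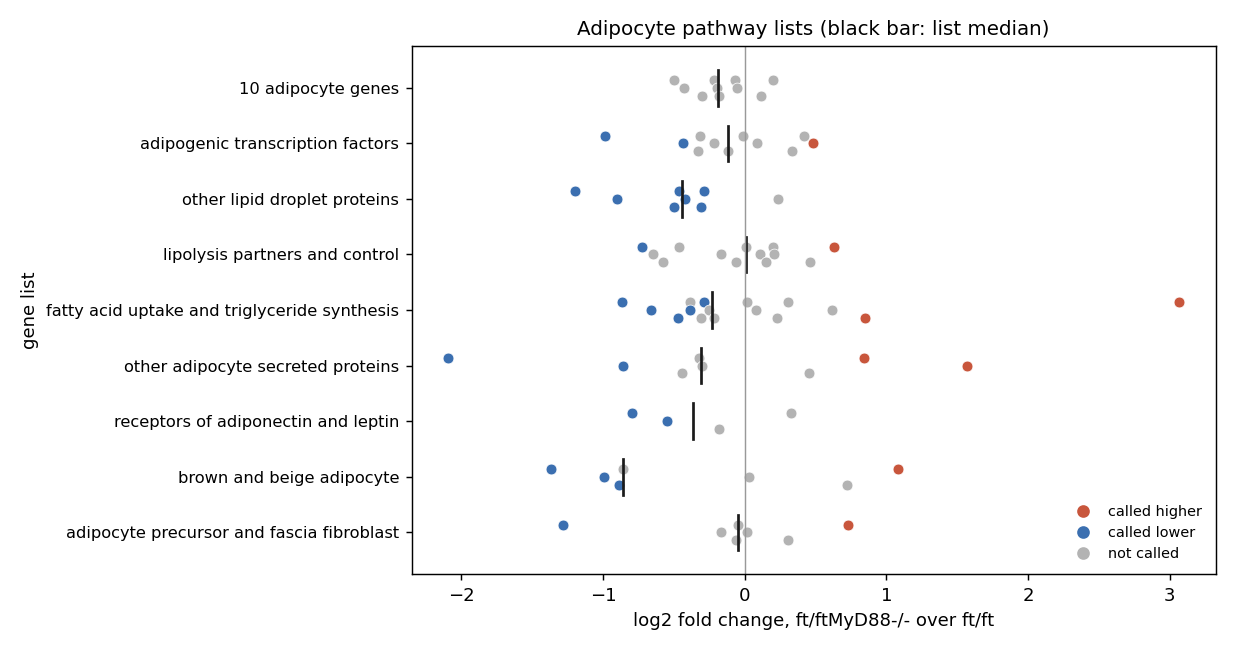
log2 fold change of ft/ftMyD88-/- over ft/ft (x axis) for the 10 adipocyte genes and the tested genes of 8 pathway lists (y axis), one point a gene, coloured where edgeR called it lower (blue) or higher (red), with a black bar at each list's median. All 10 adipocyte genes are grey, and 7 of the 8 other lipid droplet genes are blue.

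Of 8 other lipid droplet proteins tested, 7 were lower and 0 higher, and the list's median was -0.44 on the log2 scale. With library size only, the median was -0.27, and 3 were lower and 1 higher. With 1 library left out, the called genes named below passed in all 8 fits. The other called genes of the list passed in only 1, 4 and 5 of the 8. *Fitm1*, which helps droplets form at the endoplasmic reticulum and is mainly a muscle gene, was at 14.5, 10.7, 15.1 and 14.3 CPM across ft/ft and 4.43, 6.43, 7.52 and 5.24 in ft/ftMyD88-/-. It fell by 1.20 on the log2 scale (standard error 0.175, edgeR adjusted p = 0.000701). *Plin5*, the perilipin of oxidative tissue, was at 20.0, 13.7, 13.9 and 18.8 CPM in the ft/ft libraries and 9.16, 10.7, 8.23 and 7.32 in ft/ftMyD88-/-, and fell by 0.90 (edgeR adjusted p = 0.00223). *Bscl2*, which encodes seipin, fell by 0.50 (137 ± 2.13 to 96.8 ± 8.67 CPM, SD, n = 4, edgeR adjusted p = 0.00168). *Cidea*, a droplet fusion protein of brown fat and sebaceous glands, fell by 0.46 (487 ± 22.4 to 353 ± 53.9 CPM, SD, n = 4, edgeR adjusted p = 0.0105), a call lost with library size only (edgeR adjusted p = 0.0641). Unlike *Plin1* and *Cidec*, the libraries of these 4 genes did not overlap, and none of the 4 was highest in ft/ft replicate 4. The 4 were named because they were called, which favours genes whose groups do not overlap. In the whole list 6 of 8 did not overlap, beside 26.7% of all genes tested.

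Of 11 adipogenic transcription factors 1 rose, 2 fell and 8 were not called, with a median log2 fold change of -0.12 that turned to 0.06 with library size only. *Cebpb*, which acts early in adipocyte differentiation and in inflammation, rose by 0.48 (91.1 ± 6.36 to 127 ± 14.7 CPM, SD, n = 4, edgeR adjusted p = 0.00447). *Rxra*, the partner receptor of PPARγ, fell by 0.43 (387 ± 15.3 to 286 ± 21.1 CPM, SD, n = 4, edgeR adjusted p = 0.00412). *Ebf2*, a factor of brown fat precursors, fell by 0.99 from 4.79 ± 1.28 to 2.36 ± 0.913 CPM (SD, n = 4, edgeR adjusted p = 0.0288), but with 1 library left out it passed only where that library was ft/ft replicate 1 or ft/ftMyD88-/- replicate 2 or 3 (edgeR adjusted p up to 0.0816, without ft/ft replicate 3), and it did not pass with library size only (edgeR adjusted p = 0.0641). *Pparg*, singled out after its values were seen, was at 42.7 ± 5.68 and 33.9 ± 6.28 CPM (SD, n = 4, log2 fold change -0.33, edgeR adjusted p = 0.105).

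Fatty acid uptake and triglyceride synthesis had 5 genes lower, 2 higher and 9 not called of 16 (median -0.23). *Lmf1*, a chaperone that lipoprotein lipase needs to fold, fell by 0.87 (24.1 ± 0.715 to 13.2 ± 1.26 CPM, SD, n = 4, edgeR adjusted p = 0.000178), while *Lpl* itself did not pass. *Fabp5*, the epidermal fatty acid binding protein, was at 849, 777, 679 and 791 CPM across ft/ft and 1161, 1375, 1018 and 2027 in ft/ftMyD88-/-. It rose by 0.85 on the log2 scale (standard error 0.188, edgeR adjusted p = 0.0083), whereas its adipocyte relative *Fabp4* did not pass. *Slc2a4*, the insulin-dependent glucose transporter of fat and muscle, fell by 0.66 (edgeR adjusted p = 0.0149), and *Cd36*, a fatty acid receptor, fell by 0.47 (edgeR adjusted p = 0.0411). Both calls were lost with library size only (edgeR adjusted p = 0.0644 and 0.194), and with 1 library left out *Cd36* passed only without replicate 3 of either group (edgeR adjusted p up to 0.121, without ft/ft replicate 4).

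Among 13 partners and controls of lipolysis 1 rose, 1 fell and 11 were not called, with a median of 0.01. *Prkar2b*, a regulatory subunit of protein kinase A, rose by 0.63 (22.8 ± 4.45 to 35.3 ± 8.33 CPM, SD, n = 4, edgeR adjusted p = 0.0247), and *Adrb1*, an adrenergic receptor, fell by 0.72 (3.21 ± 0.565 to 1.95 ± 0.311 CPM, SD, n = 4, edgeR adjusted p = 0.0227). Neither passed without ft/ft replicate 2 or without ft/ft replicate 3 (edgeR adjusted p up to 0.0683 and 0.0634), and *Adrb1* was also lost without ft/ftMyD88-/- replicate 3 and with library size only (edgeR adjusted p = 0.0571).

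Of 8 other secreted proteins 2 rose, 2 fell and 4 were not called. *Agt*, angiotensinogen, was at 11.8, 8.51, 9.26 and 15.0 CPM in the ft/ft libraries and 1.97, 2.83, 3.13 and 2.44 in ft/ftMyD88-/-. It fell by 2.09 on the log2 scale (standard error 0.209, edgeR adjusted p = 7.64e-05), the largest decrease in the pathway lists. *Nrg4*, a growth factor of the EGF family, rose by 0.84 (edgeR adjusted p = 0.00223). *Rbp4*, the retinol carrier, fell by 0.86 (39.7 ± 10.3 to 21.8 ± 7.70 CPM, SD, n = 4, edgeR adjusted p = 0.0488), and with 1 library left out passed only without ft/ft replicate 2 or ft/ftMyD88-/- replicate 3 (edgeR adjusted p up to 0.123, without ft/ftMyD88-/- replicate 4) and not with library size only (edgeR adjusted p = 0.0939). *Cfd*, the adipocyte protease adipsin, singled out after its values were seen, was at 594 ± 215 and 437 ± 188 CPM (SD, n = 4, edgeR adjusted p = 0.423).

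While *Adipoq* and *Lep* themselves did not pass, 2 of 4 genes for adiponectin and leptin receptors fell and 0 rose. Both that fell are for adiponectin, and the leptin receptor gene was not called, with a positive fold change. With library size only 2 fell and 1 rose. *Cdh13*, which encodes the adiponectin-binding T-cadherin, fell by 0.80 (94.7 ± 6.79 to 54.5 ± 6.10 CPM, SD, n = 4, edgeR adjusted p = 0.000245), and *Adipor1* fell by 0.55 (353 ± 39.5 to 242 ± 7.19 CPM, SD, n = 4, edgeR adjusted p = 0.00183).

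Of 7 brown and beige adipocyte genes 3 fell, 1 rose and 3 were not called. Their median of -0.86 was the value of the uncalled *Ucp1*, with 4 genes negative and 3 positive. The summed CPM overlapped, at 79.9 to 113 in ft/ft and 43.1 to 103 in ft/ftMyD88-/-. *Prdm16*, a regulator of brown fat identity, was at 6.00, 8.07, 5.30 and 6.21 CPM across ft/ft and 2.28, 2.65, 2.62 and 2.38 in ft/ftMyD88-/-, and fell by 1.36 (standard error 0.17, edgeR adjusted p = 0.000278). The mitochondrial subunits *Cox7a1* and *Cox8b*, used by muscle as well, fell by 0.99 (edgeR adjusted p = 0.0249) and 0.89 (edgeR adjusted p = 0.0294). With 1 library left out, *Cox7a1* was lost without ft/ft replicate 1 or 4 or ft/ftMyD88-/- replicate 4, and *Cox8b* without ft/ft replicate 1, 3 or 4 or ft/ftMyD88-/- replicate 2 or 4 (edgeR adjusted p up to 0.0665 and 0.0766, both without ft/ft replicate 1), and *Cox8b* was lost with library size only (edgeR adjusted p = 0.0584). *Ucp1*, the defining brown fat uncoupling protein, was near the floor at 0.372 ± 0.221 and 0.218 ± 0.125 CPM (SD, n = 4), where 3 counts correspond to 0.102 to 0.183 CPM. Among 7 genes of adipocyte precursors and fascia fibroblasts 1 rose, 1 fell and 5 were not called. *Pi16*, a marker of fascia fibroblasts, rose by 0.73 (195 ± 53.8 to 323 ± 59.0 CPM, SD, n = 4, edgeR adjusted p = 0.0263), a call lost without replicate 2 or 4 of either group (edgeR adjusted p up to 0.0718, without ft/ftMyD88-/- replicate 4).

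Markers of muscle and, with TMM scaling, of sebaceous and meibomian glands moved with the groups. The summed lacrimal gland markers also did not overlap, though only 1 of their 5 tested genes was called. Endothelial and macrophage markers moved less clearly or not at all. Skeletal muscle markers were lower in 9 of 10 and summed to 8968 to 12132 CPM in the ft/ft libraries and 3429 to 6624 in ft/ftMyD88-/-, without overlap. Their highest libraries were also ft/ft replicate 4 and ft/ftMyD88-/- replicate 3. Sebocyte and meibocyte markers were lower in 7 of 12 (24319 to 26685 against 14267 to 21043 CPM), endothelial markers lower in 3 and higher in 1 of 9, with 0 lower under library size only (359 to 440 against 284 to 373), lacrimal gland markers lower in 1 of 5 tested, *Aqp5*, which gave most of their sum (103 to 119 against 46.6 to 87.5), and macrophage markers higher in 1 of 9 (377 to 555 against 450 to 684). With library size only, the sebocyte and meibocyte sums overlapped, at 22458.1 in ft/ft replicate 1 and 22555.5 in ft/ftMyD88-/- replicate 2. Of these markers 5 were then lower and 1 higher. Mitochondrially encoded genes took 1.86% to 2.72% of counts in ft/ft and 1.02% to 1.99% in ft/ftMyD88-/-. The part of these tissues in the values of *Pnpla2*, *Lpl* and *Plin4* and of the called pathway genes *Fitm1*, *Plin5*, *Cidea*, *Slc2a4*, *Cox7a1* and *Cox8b* was not tested.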

How the data were processed

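Bulk RNA-seq of periocular skin was read from the table the authors deposited, which holds raw counts and no normalized values. The paper gives polyA-selected TruSeq libraries, HISAT and tophat2 alignment to GRCm38.p6 and HTSeq counting, whereas the labels of these 8 samples give total RNA, a fixed-tissue protocol, Cell Ranger and GRCm38; which applies was not settled here, and no strand setting is given. Whether reads or molecular identifiers were counted is therefore not known here, and floors cover counting error only. All 8 sample columns of the table were used, leaving 0 unused.

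Genes with at least 10 counts summed over 8 libraries (20454 of 21247) were fitted in R 4.3.3 with edgeR 4.0.16 (TMM, glmQLFit with robust = TRUE, glmQLFTest, two-sided, no covariate), with Benjamini-Hochberg adjustment over all of them at 0.05. Standard errors come from the log2 fold change and the F value. On simulated data (20454 genes drawn, 20197 tested) it called 200 of 200 genes changed 4-fold and 12 unchanged ones. Only well-counted genes were changed there, and each gene had the spread typical of its level. The simulation therefore does not show how well a change would be found in the members, which varied more than most genes. Alternatives used DESeq2 1.42.0, limma 3.58.1 (voom), RLE, upper quartile or library size only, filterByExpr, no filter, a block for the replicate number, fits with 1 library left out, an adjusted p under 0.01 and a log2 fold change of at least 1. One fit without the highest library of each group was added after the data were seen.

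The members and gene lists were chosen with earlier results of these data known. Named genes are the members, called list genes (at most 4 a list, by absolute log2 fold change among those with a mean of at least 50 counts), and the 8 genes most like the members. One called list gene is not reported here by name. Levels per kb use the longest GENCODE M21 transcript of a gene with a RefSeq mRNA. Counts of replicates differed by more than counting noise in every pair (chi-square over degrees of freedom 15.1 or more), so each counted as a sample. The labels tie no library to an animal, but the paper gives 4 mice a group for these data, and the libraries were taken as the replicates.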

Additional observations from a re-analysis of the deposited data

Results flagged for a closer look

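In ft/ftMyD88-/-, replicate 3 stood far above the other libraries for 6 adipocyte genes. Its gap to the nearest library, as a share of the group's whole range, was 0.831 for *Adipoq*, 0.886 for *Lep*, 0.872 for *Plin1*, 0.841 for *Cidec*, 0.852 for *Lpl* and 0.974 for *Retn*, above Dixon's 95% critical value of 0.829 for 4 samples. In ft/ft, replicate 4 stood above the rest for *Pnpla2*, with a share of 0.857. Of 20 groups tested 7 passed, where chance flags about 1 in 20, and the genes share libraries, so the 7 are not independent. Without both libraries, edgeR called *Plin1* (log2 fold change -0.60, adjusted p = 0.0142) and *Pnpla2* (-0.41, adjusted p = 0.0494) lower in ft/ftMyD88-/-, with 3 libraries a group. The libraries were left out because these same genes were highest there, which narrows the spread within groups. The adjusted p values of that fit are therefore no evidence of a difference. Of 17 alternatives, *Plin1* was called in 1, this fit.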

How the results depend on the processing

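Of the 10 adipocyte genes, 0 were called in the main fit, 1 with DESeq2 and 1 with limma voom (*Pnpla2* in both), 0 to 1 with 1 library left out, and 2 without the highest library of each group, a setting chosen after seeing the data. Among the other 74 pathway genes the count of calls was 31, between 20 (without ft/ftMyD88-/- replicate 4) and 34 (without ft/ftMyD88-/- replicate 3) with 1 library left out, 14 at an adjusted p under 0.01 and 7 with a log2 fold change of at least 1. Library size only moved the log2 difference of summed sebocyte markers from -0.55 to -0.37 and that of endothelial markers from -0.27 to -0.095. The sign of uncalled members changed in up to 5 of 17 alternatives for *Adipoq* and *Lep*, 2 for *Retn* and *Fabp4* and 1 for *Cidec*. Over all genes, calls numbered 4764 in the main fit, 2301 at an adjusted p under 0.01 and 1272 with a log2 fold change of at least 1. Libraries share replicate numbers only: same-numbered libraries had correlations of -0.37 to 0.08, 0 of 4 pairs above 0.1. With the number as a replicate block, 0 members, 25 pathway genes and 4039 genes in all were called.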
